A study of Mus musculus with 6 samples.

Results

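The Hox clusters of the mouse genome were examined for accessible chromatin in colon cancer organoids, across all peaks of the deposited table that overlapped 4 fixed windows of the mm9 genome. The HoxA window was chr6:52095000-52225000, the HoxB window chr11:96045000-96240000, the HoxC window chr15:102740000-102875000 and the HoxD window chr2:74490000-74615000. Of 43020 peaks in the table, 31 fell in these windows, with 17 in HoxA, 12 in HoxB, 2 in HoxC and 0 in HoxD. Accessibility was measured by ATAC-seq, in which the Tn5 transposase cuts and tags open DNA, so that reads accumulate over open regions. Both groups were colon cancer organoids of the AKP genotype. Naive organoids, which had not been in a mouse, gave 3 libraries. The primary tumour group held another 3, from organoid lines grown out of tumours. Those tumours formed in immunocompetent C57Bl6 mice whose colon had received naive organoids through a colonoscope, and the lines were passaged until no other cells remained. Growth in the mouse, outgrowth and passaging are shared by the 3 lines and cannot be told apart. The labels do not say whether the naive libraries came from separate cultures, so p-values measure the spread between these libraries, which may be technical for that group. The table names no genes, and the organoids' epithelial markers were not checked here.

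Hox genes encode homeodomain transcription factors that give cells their position along the head-to-tail axis. They lie side by side in 4 clusters on different chromosomes, and their order along the chromosome follows the order of the body regions in which they act, with low-numbered genes anterior and high-numbered genes posterior. Genes of the same number in different clusters are paralogues, descended from a common ancestral gene. Hox promoters are rich in CpG dinucleotides, and in cells where a Hox gene is off its chromatin is typically held by Polycomb complexes. In the gut, the CDX factors act upstream of posterior Hox genes, and the genes numbered 13 are known for their part in the hindgut. The gene order was taken from a RefSeq gene table of another build (GRCm38.p6) and used for direction alone. HoxA ran from Hoxa2 to Hoxa13 with rising coordinates. HoxB, HoxC and HoxD ran from their posterior to their anterior end with rising coordinates, and Hoxb13 closed the posterior end of HoxB. Peaks are numbered below from the anterior end of each cluster, so that HoxB peak 7 is the seventh from that end and has no link to the gene Hoxb7. No peak was assigned to a gene, an exon or an intron, since no mm9 annotation was used here.

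RefSeq promoters (GRCm38.p6) were matched by symbol for 22 of the 38 Hox genes considered, giving 24 start sites. Those shown here set the posterior paralogues of the cluster with the most peaks and of the cluster with none side by side, and add a pair from HoxB, the cluster that held the 3 called peaks. Each is the 250 bases before the start site on the gene's own strand, 5′ to 3′, with CpG dinucleotides in capitals. Hoxa13 lies on the minus strand and the others on the plus strand.
Hoxa13: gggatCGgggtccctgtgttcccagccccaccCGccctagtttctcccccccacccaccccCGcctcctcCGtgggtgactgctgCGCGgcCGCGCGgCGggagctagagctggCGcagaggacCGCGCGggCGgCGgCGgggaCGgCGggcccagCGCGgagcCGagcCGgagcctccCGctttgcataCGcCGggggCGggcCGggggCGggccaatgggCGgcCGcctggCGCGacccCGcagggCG
Hoxd13: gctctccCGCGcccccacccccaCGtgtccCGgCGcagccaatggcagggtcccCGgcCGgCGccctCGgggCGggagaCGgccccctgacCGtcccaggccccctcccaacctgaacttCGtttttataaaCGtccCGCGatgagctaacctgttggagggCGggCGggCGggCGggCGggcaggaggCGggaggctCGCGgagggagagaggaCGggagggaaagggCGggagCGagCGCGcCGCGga
Hoxb4: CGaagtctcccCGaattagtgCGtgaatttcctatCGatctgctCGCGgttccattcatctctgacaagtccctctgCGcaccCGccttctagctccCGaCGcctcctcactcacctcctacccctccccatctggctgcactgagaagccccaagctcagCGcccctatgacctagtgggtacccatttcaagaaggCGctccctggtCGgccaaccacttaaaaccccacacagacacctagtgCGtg
Hoxb8: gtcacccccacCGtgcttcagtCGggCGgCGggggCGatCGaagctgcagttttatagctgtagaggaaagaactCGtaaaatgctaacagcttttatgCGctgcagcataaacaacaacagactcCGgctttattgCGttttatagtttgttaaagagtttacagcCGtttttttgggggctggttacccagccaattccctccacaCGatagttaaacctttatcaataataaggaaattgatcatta
Hoxa13 had 35 CpG and Hoxd13 had 31, each the highest count among the matched promoters of its cluster. No peak was tied to a promoter here. Hoxb4 had 14 and Hoxb8 had 12. The median over the 24 Hox promoters was 12.5, against 6.0 over all 32851 RefSeq promoters of the same length. It was 15.5 for 10 HoxA promoters and 12.5 for 10 HoxD promoters, with ranges of 3 to 35 and 2 to 31. HoxB gave 3 of the 24 and HoxC 1, so the median over the 24 mostly describes HoxA and HoxD. The sequence CAATAAA, a core of CDX and posterior HOX binding sites, was searched on both strands. It was found in 1 of the 24 Hox promoters (4.17%), that of Hoxb8, and in 4.20% of all promoters. TGATTNAT, a core of HOX and PBX sites, was found in 2 of the 24 (8.33%) and in 2.82% of all. Shares that rest on 1 and 2 promoters set nothing apart for Hox promoters. A match is a description of the letters and not a bound site.

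The clusters differed widely in how many accessible sites they held. HoxA carried 17 peaks in 130 kb. When the genome was cut into 20308 tiles of that length, 32 tiles (0.158%) held as many. HoxB carried 12 peaks in 195 kb, a number reached by 5.92% of tiles of its length. HoxC, with 2 peaks in 135 kb, was near the genome's median of 1 peak per tile. No peak of the table overlapped the 125 kb of HoxD, and 45.4% of tiles of that length held none. The nearest tested peaks around HoxD lay 72.6 kb beyond its posterior edge and 48.6 kb beyond its anterior edge. These densities describe 1 peak set shared by all libraries, so they hold for both groups together.

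HoxB peaks, and to a lesser degree HoxA peaks, were wide. The median width was 983 bp in HoxA, 1943 bp in HoxB and 488.5 bp in HoxC, against 746 bp over all peaks. Of the 31, 12 were narrower than that median over all peaks, with 7 in HoxA, 3 in HoxB and both in HoxC. At the other end, 11 of 31 (35.5%) exceeded 1500 bp, against 12.4% of all peaks. In HoxB 7 of 12 did so, in HoxA 4 of 17 and in HoxC none. CPM is the count of a peak relative to its library's reads in peaks that passed the filter on low counts, after TMM scaling. TMM scaling aligns the bulk of peaks between libraries. The median accessibility of a Hox peak was 25.2 CPM, against 12.8 CPM over all peaks. Per kb of peak width the gap was smaller, with medians of 22.1 and 16.5 CPM per kb. The 31 peaks took between 0.0892% and 0.108% of the reads of a library and 0.107% of the summed peak width.

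Total reads in peaks ran from 1185356 in naive replicate 1 to 5987545 in naive replicate 2, and from 1916819 to 3594735 in the tumour lines. The reads in Hox peaks ran from 1246 to 6462 per library. Over the 31 peaks, which are not independent, Pearson's r of log2(CPM + 1) lay between 0.926 and 0.938 for pairs of naive libraries, 0.907 and 0.948 for pairs of tumour lines and 0.834 and 0.907 for mixed pairs, given as a description over libraries that share 1 peak set.

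The strongest Hox site was HoxA peak 9 (chr6:52171536-52172546), in the middle of HoxA. It had 121, 144 and 110 CPM in naive replicates 1, 2 and 3 and 106, 146 and 102 CPM in the lines from primary tumours, and thus overlapped between the groups. Its log2 fold change, primary tumour minus naive here and throughout, was -0.09 (SE 0.20, adjusted p = 0.821, edgeR's quasi-likelihood test with Benjamini-Hochberg adjustment over all tested peaks). At 120 CPM per kb it was also the densest of the 31, followed by HoxA peak 2 with 52.7 CPM per kb. In HoxB the highest mean was at peak 7 and in HoxC at peak 2, where it was 8.99 CPM.

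**Figure D1:**
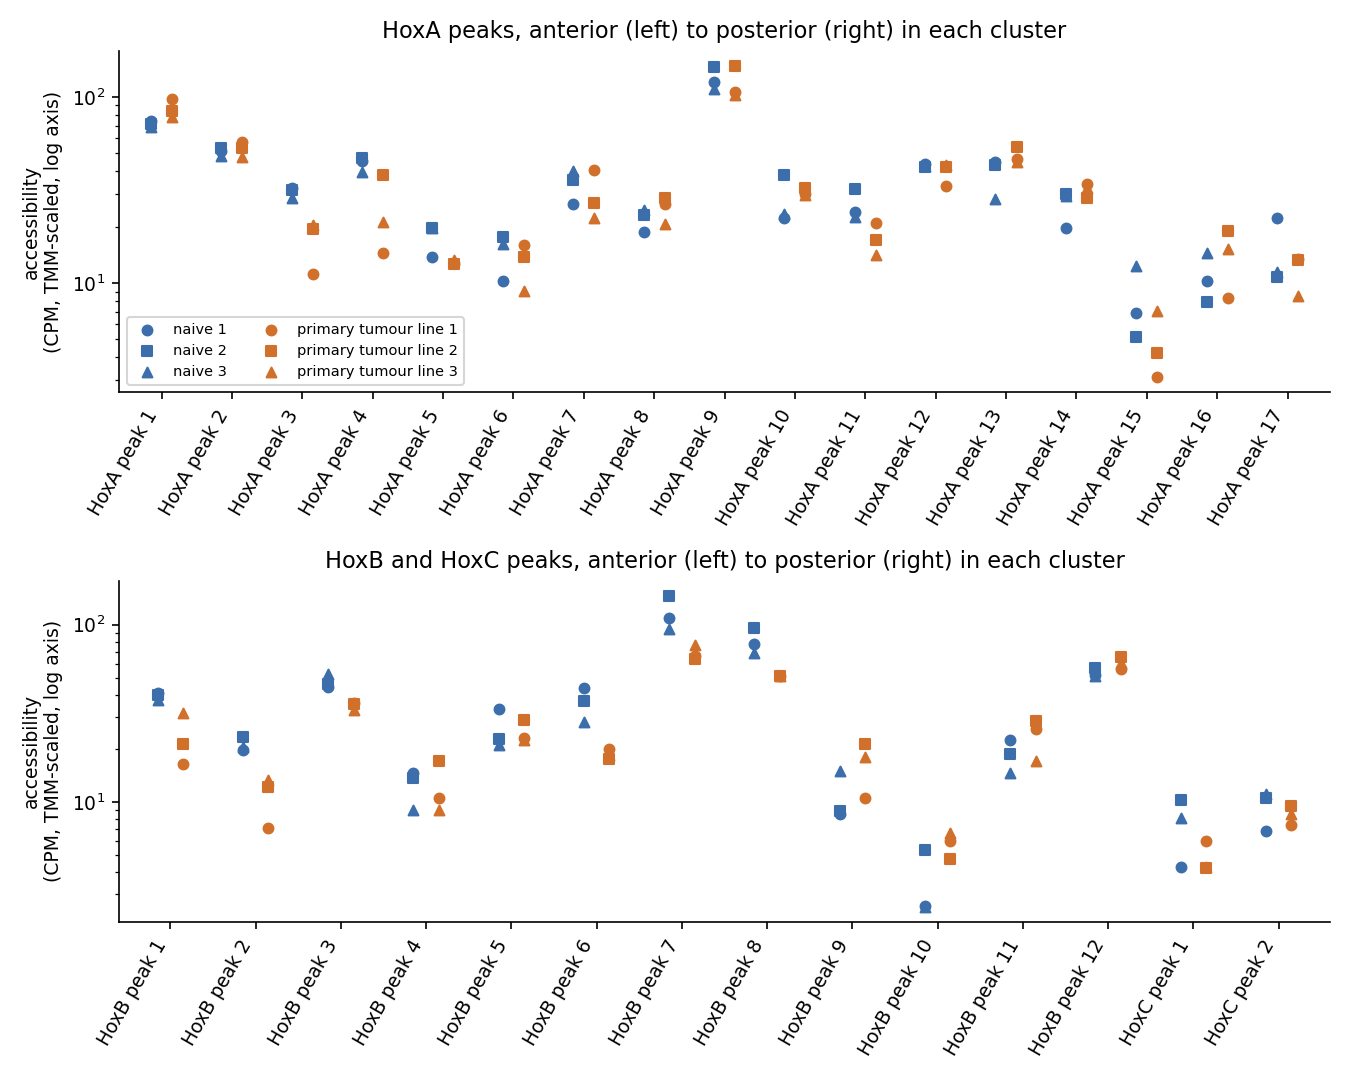
Accessibility of each Hox peak in CPM after TMM scaling (log axis), by library; blue marks are naive libraries, orange marks the lines from primary tumours, and marker shapes are replicates 1 to 3. All orange marks lie below all blue marks at 10 of the 31 peaks, among them the called HoxB peaks 6, 7 and 8, while HoxA peak 9, the strongest, overlaps.

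Primary tumour lines were compared with naive organoids to ask whether Hox chromatin differed in the lines grown from tumours. Accessibility fell at 3 of the 31 Hox peaks, all in the middle of HoxB, and rose at none. All 31 passed the filter on low counts and were tested. Genome-wide, 8.00% of 36179 tested peaks rose and 6.40% fell (adjusted p under 0.05, edgeR), 14.4% in all. Among all 31 Hox peaks 9.68% fell. All 3 were among the 20 Hox peaks at or above the median CPM of tested peaks, a share of 15%, against 9.11% of all 18090 tested peaks at or above it, and 0 of the other 11 fell. These shares rest on 3 calls and set nothing apart for Hox peaks as a group. At an unadjusted p under 0.05, 0 Hox peaks were higher and 7 lower by edgeR, against 14.3% and 13.1% of all tested peaks. Of the 7, 6 were among the 20 Hox peaks of higher CPM, and here the matching share of all peaks was not taken. DESeq2's Wald test also called 0 higher and 3 lower.

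The 3 sites that fell were HoxB peaks 6, 7 and 8, neighbours in order along 20.01 kb of chromosome 11. HoxB peak 6 (chr11:96138967-96140424) had 43.8, 37.3 and 28.2 CPM in the naive libraries and 19.96, 17.5 and 18.5 CPM in the lines from primary tumours. Its naive values were spread and its tumour-line values close together, with no overlap. The means were 36.4 ± 7.82 and 18.6 ± 1.26 CPM (SD, n = 3 each), a 1.93-fold lower level (log2 fold change -0.95, SE 0.29, adjusted p = 0.0290, edgeR).

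HoxB peak 7 (chr11:96131324-96133868) had 109, 145 and 94.8 CPM in naive organoids and 66.7, 64.0 and 77.3 CPM in the tumour lines. It is 2544 bp wide and the strongest site of HoxB, and it rests on 127 to 790 naive reads and 121 to 234 tumour-line reads. The groups did not overlap, and the highest value belonged to naive replicate 2, the deepest library. The level was 1.69-fold lower in the tumour lines, and the log2 fold change was -0.76 (adjusted p = 0.0147, SE 0.21, edgeR).

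HoxB peak 8 (chr11:96120412-96123178) is the widest site of HoxB, at 2766 bp. It had 78.1, 95.9 and 69.6 CPM in naive organoids and 51.1, 51.3 and 51.2 CPM in the tumour lines. The tumour lines were nearly equal there and lay below every naive library. The level was 1.60-fold lower (log2 fold change -0.67, SE 0.21, adjusted p = 0.0341, edgeR).

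These calls were near the threshold. Without naive replicate 2, edgeR called 0 of the 3, with adjusted p-values of 0.130, 0.129 and 0.202 for peaks 6, 7 and 8, and the log2 fold changes were -0.92, -0.55 and -0.52, smaller at peaks 7 and 8 than with all libraries. Without primary tumour replicate 2 they were 0.0751, 0.0656 and 0.0884, and HoxA peak 4 was called instead (adjusted p = 0.00610, edgeR). In bulk libraries, fewer cells with an open site and a lesser opening in each cell cannot be told apart.

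HoxB peaks 1, 2 and 3, the most anterior peaks of the cluster, had lower values as well, without passing the test. Their centres lay 59.6, 79.5 and 82.9 kb from the anterior edge of the 195 kb window. No peak lay anterior to peak 1 in the window, so these values do not cover the anterior end itself. HoxB peak 1 (chr11:96179432-96181461) had 41.2, 39.9 and 37.6 CPM in naive organoids and 16.3, 21.2 and 31.8 CPM in the tumour lines. All 3 tumour lines lay below the naive libraries, but replicate 3 lay closer to them than the others (log2 fold change -0.79, SE 0.29, adjusted p = 0.0668, edgeR). HoxB peak 2 had 19.7, 23.1 and 20.5 CPM against 7.13, 12.2 and 13.3 CPM, the largest negative difference in the 4 clusters (log2 fold change -0.99, SE 0.38, adjusted p = 0.0803). HoxB peak 3 had 44.6, 46.1 and 53.0 CPM against 35.9, 35.5 and 33.2 CPM (log2 fold change -0.46, adjusted p = 0.219). Between these and the called sites, peaks 4 and 5 overlapped between the groups, with log2 fold changes of -0.03 and -0.02.

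The posterior end of HoxB, where the gene order ends with Hoxb13, had no negative log2 fold change. Its 3 peaks were set apart from HoxB peak 9 by 44.6 kb without a peak. HoxB peak 12 (chr11:96055002-96057390), the strongest of them, had 52.3, 57.3 and 51.2 CPM in naive organoids and 56.2, 65.6 and 61.2 CPM in the tumour lines. The groups overlapped (log2 fold change 0.18, SE 0.22, adjusted p = 0.665, edgeR). Peaks 9, 10 and 11 had log2 fold changes of 0.59, 0.63 and 0.38, with SE of 0.42, 0.60 and 0.33 and adjusted p-values of 0.386 to 0.556. In every alternative in which they were tested, peaks 9 to 12 had a log2 fold change above 0. HoxB peak 10 is the weakest of the 31, with 3 to 29 reads per library.

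**Figure D2:**
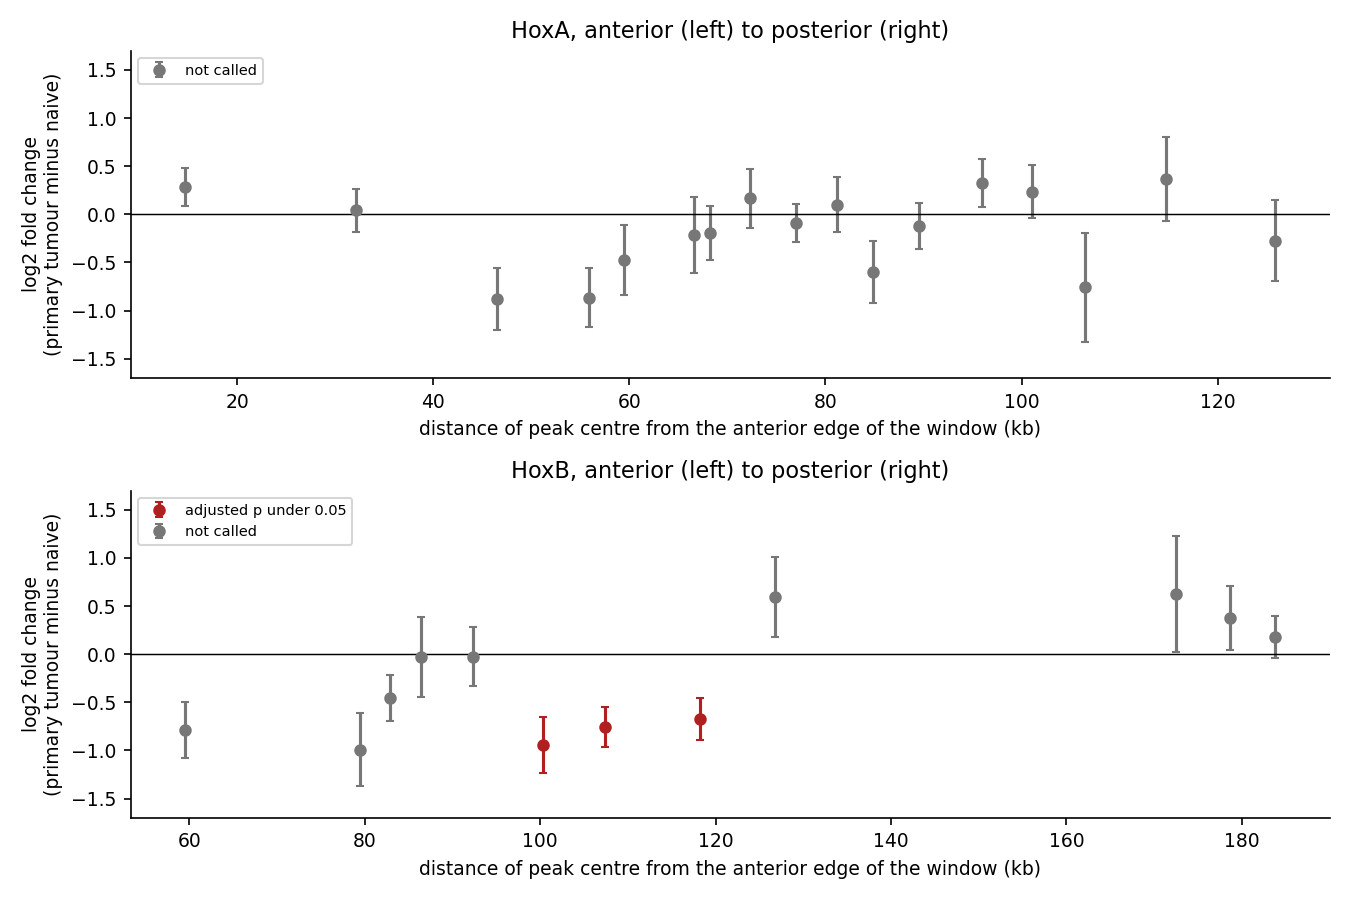
Log2 fold change (primary tumour minus naive, bars are 1 SE) of each HoxA and HoxB peak against the distance of its centre from the anterior edge of the window in kb; red marks have an adjusted p under 0.05. The 3 red marks lie next to each other in HoxB, between log2 values of -0.95 and -0.67, and the 4 most posterior HoxB peaks lie above 0.

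Within HoxB, reads were balanced differently between the segments of the cluster in the 2 groups. The window was cut into 3 equal segments, and the share of the cluster's reads in each was taken, a measure that does not depend on how libraries are scaled. The posterior segment (peaks 10 to 12) took 16.4%, 15.8% and 16.4% of HoxB reads in naive replicates 1, 2 and 3. In the tumour lines it took 26.7%, 26.9% and 23.6%, above every naive library. The middle segment (peaks 2 to 9) took 74.6% to 76.4% in naive organoids and 67.3% to 68.3% in the tumour lines. The anterior segment, peak 1 alone, took 7.76% to 9.02% and 4.94% to 8.84%. In CPM, the posterior segment had 77.2, 81.4 and 68.3 in naive organoids and 87.8, 98.96 and 84.9 in the tumour lines, and the middle segment 352, 393 and 311 against 225, 248 and 243. The groups were thus apart in opposite directions in these segments. Sums and shares over peaks are given with no test. The middle segment holds the 3 called peaks, and shares add up to the whole cluster, so the shares are not independent of those calls. For a pair of single sites chosen after their values were seen, HoxB peak 7 stood at 2.08, 2.53 and 1.85 times the level of HoxB peak 12 in naive organoids and at 1.19, 0.976 and 1.26 times in the tumour lines.

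Summed over its 12 peaks, HoxB had 470, 514 and 417 CPM in naive organoids and 329, 368 and 360 CPM in the tumour lines. All tumour lines lay below all naive libraries, with means of 352 ± 20.5 and 467 ± 48.6 CPM (SD, n = 3 each) and a log2 ratio of -0.41. HoxA, over 17 peaks, had 588, 653 and 580 CPM against 572, 632 and 530 CPM, which overlap (578 ± 51.6 and 607 ± 39.7 CPM, log2 ratio -0.07). HoxC, over 2 peaks, had 11.2, 20.8 and 19.2 CPM against 13.4, 13.8 and 12.8 CPM. Naive replicate 1, the shallowest library with 13 HoxC reads, was the lowest there, and the groups overlapped. Whether HoxB differed from HoxA was not tested.

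**Figure D3:**
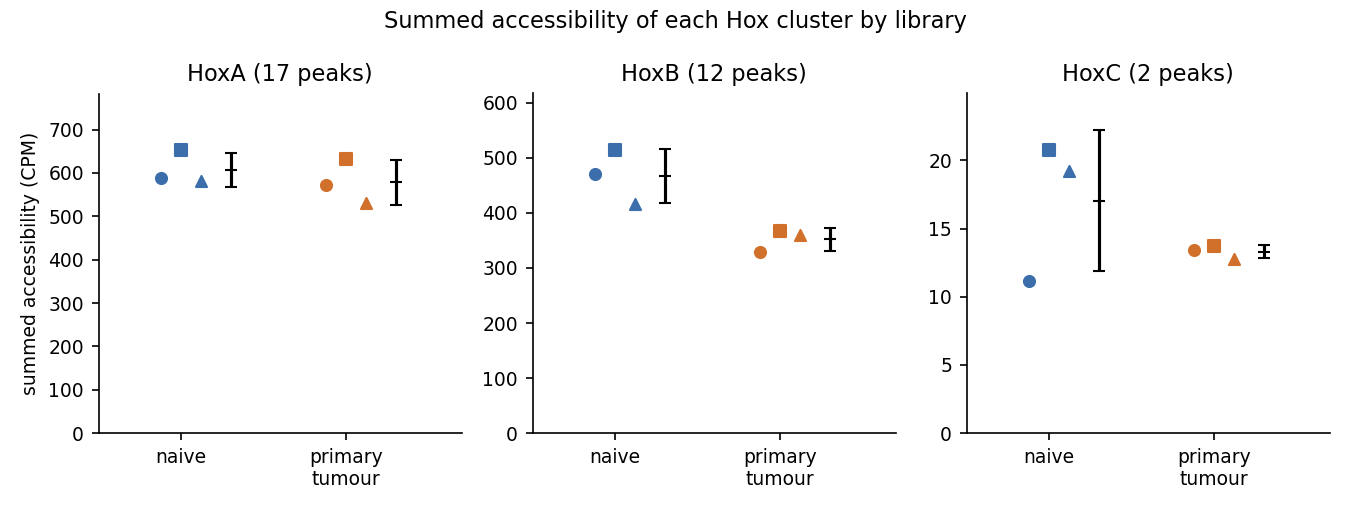
Summed accessibility in CPM of HoxA, HoxB and HoxC by library (axes start at 0 and differ between panels), with the mean and SD of each group in black; circles, squares and triangles are replicates 1, 2 and 3. The 3 tumour lines lie between 329 and 368 CPM in HoxB, below the naive libraries at 417 to 514 CPM, and overlap them in HoxA.

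No HoxA peak passed the test in either direction. By edgeR 0 of 17 were called higher and 0 lower, against 8.00% and 6.40% of all tested peaks. At an unadjusted p under 0.05 the HoxA counts were 0 and 2, against 14.3% and 13.1% of all tested peaks. DESeq2 called 0 HoxA peaks as well. The lowest p-values were at 2 neighbours in the anterior part of the middle segment. HoxA peak 3 (chr6:52140565-52142432) had 32.6, 31.4 and 28.6 CPM in naive organoids and 11.1, 19.6 and 20.4 CPM in the tumour lines, and the log2 fold change was -0.88 (adjusted p = 0.0654, SE 0.32, edgeR). HoxA peak 4 (chr6:52149950-52151824) had 45.5, 47.0 and 39.3 CPM against 14.5, 38.1 and 21.3 CPM, and the log2 fold change was -0.86 (adjusted p = 0.0575, SE 0.30). Both had all tumour lines below all naive libraries, and replicate 1 was the lowest line at each. At HoxA peak 4 replicate 2 came close to the naive range.

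Anterior to that pair, values were level or higher. HoxA peak 1 (chr6:52108108-52111361), the most anterior and at 3253 bp the widest Hox site, had 73.8, 71.3 and 68.8 CPM in naive organoids and 97.5, 83.6 and 78.3 CPM in the tumour lines. It was the sole Hox peak with all tumour lines above all naive libraries, and the difference did not pass the test (log2 fold change 0.28, SE 0.20, adjusted p = 0.390, edgeR). HoxA peak 2 had 51.5, 53.5 and 48.3 CPM against 57.0, 52.9 and 47.4 CPM (log2 fold change 0.04). Posterior to peak 4, the 13 remaining HoxA peaks ranged in log2 fold change between -0.76 and 0.37, with adjusted p-values from 0.234 upward. Among them peaks 5 and 11 had all tumour lines below all naive libraries (log2 fold changes -0.47 and -0.60). The most posterior sites, peaks 15, 16 and 17, were weak, with 8 to 59 reads per library, and overlapped.

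Segment shares were taken in HoxA in the same way. The anterior segment, peaks 1 and 2, took 21.3%, 19.1% and 20.2% of HoxA reads in naive organoids and 27.0%, 21.6% and 23.7% in the tumour lines. The groups did not overlap, although tumour replicate 2 lay next to naive replicate 1. The middle segment, peaks 3 to 11, took 53.6% to 59.6% and 47.8% to 52.97%, and the posterior segment, peaks 12 to 17, took 21.3% to 25.1% and 24.2% to 28.5%, which overlap.

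**Figure D4:**
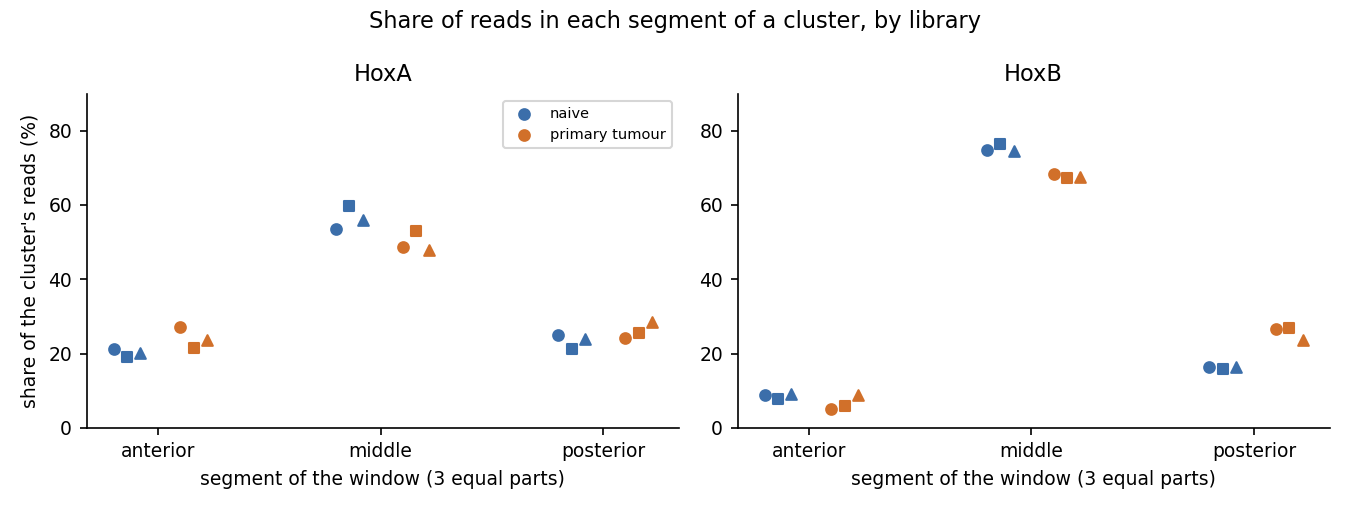
Share of a cluster's reads (%) in the anterior, middle and posterior segments of the HoxA and HoxB windows, each window cut into 3 equal parts; blue marks are naive libraries, orange marks the lines from primary tumours, and shapes are replicates 1 to 3. In HoxB the posterior share is 15.8% to 16.4% in naive organoids and 23.6% to 26.9% in the tumour lines.

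HoxC held a pair of weak peaks near its anterior end, where Hoxc4 closes the gene order. HoxC peak 1 (chr15:102863120-102863550) had 4.29, 10.3 and 8.11 CPM in naive organoids and 5.99, 4.23 and 4.27 CPM in the tumour lines, and the log2 fold change was -0.69 (adjusted p = 0.442, SE 0.53, edgeR). HoxC peak 2 (chr15:102844620-102845167) had 6.86, 10.5 and 11.1 CPM against 7.42, 9.53 and 8.54 CPM, and the log2 fold change was -0.20 (adjusted p = 0.832, SE 0.46). Both rest on 5 to 57 reads per library, and the groups overlapped at each. The log2 fold change of HoxC peak 1 was as large as that of HoxB peak 8, with an SE of 0.53 against 0.21.

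Across the 31 Hox peaks, all tumour lines lay below all naive libraries at 10 and above them at 1. Among all tested peaks 15.3% and 15.5% were separated in these ways. Of the 10, 8 were among the 20 Hox peaks at or above the median CPM of tested peaks. The matching share of all peaks at or above that median was not taken. The median log2 fold change was -0.19 over Hox peaks, -0.12 in HoxA and -0.24 in HoxB, against -0.01 over all tested peaks. These medians moved with single libraries. Without primary tumour replicate 3 the median was -0.01 over Hox peaks, -0.0083 in HoxA and -0.18 in HoxB. Without primary tumour replicate 1 it was -0.24, -0.02 and -0.48 in the same order, and without primary tumour replicate 2 it was -0.28, -0.17 and -0.40. Without naive replicate 1 it was -0.13 over Hox peaks, and without naive replicate 2 it was -0.06 in HoxA. Of the 31, 20 were below 0, against 50.3% of all tested peaks. The Hox peaks spanned log2 fold changes of -0.99 to 0.63, within the range of -4.84 to 5.19 over all tested peaks.

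The clusters' surroundings did not all move the same way. The genome was cut into fixed windows of 10 Mb, so a cluster need not lie at the centre of its window. The window of chromosome 6 that holds HoxA (50 to 60 Mb) had 228 tested peaks. Their median log2 ratio to naive was 0.21, 0.14 and 0.19 in tumour replicates 1, 2 and 3. It lay between -0.02 and 0.04 in the naive libraries. In the 10 Mb window that holds HoxB (90 to 100 Mb) the same medians were -0.02, 0.09 and 0.01. In that of HoxC (100 to 110 Mb, 179 tested peaks) they were -0.05, 0.26 and 0.08. In that of HoxD (70 to 80 Mb) they were -0.11, -0.28 and -0.33, all below the naive libraries. There 19 of 168 tested peaks were called lower and 8 higher (median log2 fold change -0.26), while HoxD itself holds no peak. With an offset per library and 10 Mb window, edgeR called 5 Hox peaks lower, adding HoxA peaks 3 and 4, and the summed log2 ratio was -0.24 for HoxA and -0.42 for HoxB. The nearest tested peak beyond the posterior edge of HoxB (chr11:96033772-96034756), 10.2 kb away, had 31.7 ± 7.21 CPM in naive organoids and 16.8 ± 4.16 CPM in the tumour lines (SD, n = 3 each; log2 fold change -0.90, adjusted p = 0.0569, edgeR). That beyond the anterior edge, 34.9 kb away, had a log2 fold change of -0.11 (adjusted p = 0.932). Around HoxA the neighbours lay 47.1 kb beyond the anterior and 0.464 kb beyond the posterior edge, with log2 fold changes of 0.98 (adjusted p = 0.132) and -0.05 (0.968). The neighbours of HoxC had 0.61 on the anterior and 0.67 on the posterior side, and those of HoxD -0.51 and -0.37, with adjusted p-values from 0.206 to 0.395.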

How the data were processed

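The 6 libraries were prepared from 50000 cells each, tagged for 30 min at 37 °C and read as pairs of 75 bases, per the labels' protocols. The authors deposited raw read counts per peak in 1 table of a shared peak set, with no normalization. The submitters' processing notes name Bowtie, Picard, SAMtools, MACS2 and bedtools and the build mm9, without roles. Not given in the sources used here are any shift of reads for Tn5, the handling of duplicates, and whether starts count from 0 or 1. The former pair could change counts, a shift least so in peaks as wide as these.

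Counts were fitted in R 4.3.3 with edgeR 4.0.16 on the whole table. filterByExpr left 36179 peaks, TMM scaled the libraries, and a robust 2-sided quasi-likelihood F test had group as its sole term. SE is the absolute log2 fold change over the root of F. Alternatives included DESeq2 1.42.0. Depth sets the precision. Named peaks were those called, the strongest of each cluster and the nearest tested neighbours, and others are named as the order along a cluster required. Windows, members and lists were chosen with earlier results of these data known. Cluster sums and shares carry no test. Tile counts, the split at the median CPM and the width boundary of 1500 bp were chosen after seeing the data. The list of CDX and cofactor genes that had been planned could not be placed without an mm9 annotation and was not analysed here.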

Additional observations from a re-analysis of the deposited data

How the results depend on the processing

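The count of Hox peaks called higher was 0 in every alternative run. The count called lower was 3 with TMM, DESeq2 size factors, total counts, DESeq2's Wald test, the stricter filter (20 counts or more in 3 libraries or more), and members wholly inside the windows. It was 2 with abundance-trended offsets and with no filter, and 5 with an offset per 10 Mb window. The cause was not tested. With a replicate block it was 1, HoxB peak 7 (adjusted p = 0.0358, edgeR), and over all peaks 1972 were higher and 1567 lower. Libraries that share a number deviated from their group means with correlations of -0.24, -0.11 and 0.00, and each library had its highest correlation with another number. With 3 libraries per group, these correlations cannot decide whether the numbers mark a pairing, which was not tested. Leaving out 1 library gave 0 to 3 Hox peaks lower, 1366 to 3033 of all peaks higher and 849 to 2407 lower. The lowest of each came without naive replicate 2. HoxB peaks 6 and 8 also missed the threshold without naive replicate 1 (adjusted p = 0.106 and 0.0605, edgeR) and without primary tumour replicate 3 (0.0801 and 0.110), when HoxB peak 1 passed (0.0314), and peak 8 without primary tumour replicate 1 (0.0760). HoxB peaks 6, 7 and 8 kept their sign in all 14 alternatives and were called in 9, 12 and 6 of them. The summed log2 ratio of HoxA was -0.24 with the 10 Mb offsets, turned to 0.0068 with abundance-trended offsets and ran from -0.14 to -0.01 when 1 library was left out. That of HoxB ran from -0.48 to -0.33 and that of HoxC from -0.59 to -0.19. HoxA peak 9, near 0, changed sign to 0.11 with trended offsets and ran from -0.28 to 0.029 when 1 library was left out, above 0 without naive replicate 2 and (0.01) without primary tumour replicate 3, never called. The median log2 fold change of HoxA peaks was -0.04 with trended offsets, -0.06 with total counts, -0.07 with the stricter filter and -0.30 with the 10 Mb offsets. That of all Hox peaks was -0.12 with the stricter filter and -0.30 with the 10 Mb offsets, and that of HoxB -0.42 with the stricter filter. The SE of a log2 fold change was 0.60 at HoxB peak 10, the site with the fewest reads, and 0.20 at HoxA peak 9.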
